A study of Mus musculus with 5 samples.

Results

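Integrin subunits and the proteins that link them to actin were followed through whole mouse gliomas with mutant or wild-type IDH1. The set was a list of 39 genes chosen by symbol: 8 integrin subunits of leukocytes, 18 integrin subunits that bind extracellular matrix, and 13 components of focal adhesions and cell junctions. Named probes were found for 37 of them, and all 37 were among the 16917 genes tested. Itga10, a collagen-binding subunit, and Ptk2, the focal adhesion kinase, were not analysed here.

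The gliomas came from Ntva_Ink4a/Arf-/- mice of mixed FVB/N, C57BL6, BALB/C and 129 background, so every tumour, controls included, arose without the Ink4a/Arf tumour suppressor locus. In Ntva mice the nestin promoter, active in neural progenitors, drives the receptor for avian RCAS retroviruses. The mice were injected with DF1 cells, a chicken line that sheds these viruses, for PDGFa together with either mutant IDH1 and shp53 (mutIDH1, 3 gliomas) or wild-type IDH1 and shp53 (wtIDH1, 2 gliomas), without further treatment. Tumours were taken at signs of illness, and the labels used here give no age. Each glioma was measured on 1 Illumina array, and values are log2 signals on a scale shared by all arrays. RNA was extracted from whole tissue, so fewer cells of a type and less RNA per cell cannot be told apart. The series asks, by its title, how mutant IDH1 acts on the immune system of these tumours.

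Integrins are pairs of 1 alpha and 1 beta subunit that span the membrane. Outside the cell they hold collagens, laminins, fibronectin or counter-receptors of other cells. Inside, talins and kindlins bind the beta tail and switch the pair on, and integrin-linked kinase, PINCH, parvin, paxillin and zyxin tie it to actin filaments. In brain tumours the matrix-binding pairs serve vessels and invading tumour cells, while the beta2 pairs belong to microglia, macrophages and other leukocytes.

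The tissue was checked against markers of its cell types. Glioma and oligodendrocyte precursor markers lay above background on all 5 arrays for 5 of 5 measured genes, among them Olig2 and Sox10. The wtIDH1 samples resembled each other less (Pearson r = 0.971 over the 16917 genes, which are not independent) than the mutIDH1 samples did (0.988 to 0.994). Between the groups r was 0.969 to 0.980, and exceeded 0.971 for wtIDH1 sample 1 with 2 mutIDH1 samples and for wtIDH1 sample 2 with all 3. Of 7 neuron markers, Snap25 and Tubb3 were at or under background on every array. Neuron markers set the wtIDH1 samples apart: their summed linear signal was 7739 to 14673 in mutIDH1, and 2007 in sample 1 and 20256 in sample 2 of wtIDH1. The estimated background level was 7.52, and 5144 of the genes tested lay at or under it on every array. Differences of such dim genes are compressed towards 0.

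Among the 37 genes, Itga9 was the 1 that passed the test between the groups. Itga9 encodes integrin alpha9, which pairs with beta1 and binds tenascin C, osteopontin, VCAM1 and fibronectin. It fell 2.05-fold in mutIDH1 gliomas, while the other 36 did not pass the test. In all, 1 of 37 fell, where 0.899% of all genes tested fell and 1.35% changed in either direction. By limma 0 of 37 rose, where 0.449% of all genes tested rose, and 0 were higher at an unadjusted p under 0.05, against 7.11% of all genes tested. The median change over the 37 was −0.05, against 0.01 over all genes tested.

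Many members lay a little lower in mutIDH1 without passing. In 13 of the 37 (35.1%) every mutIDH1 sample was below both wtIDH1 samples, as in 14.0% of all genes tested. The opposite order held for 2 of 37 (5.41%), against 16.7% of all genes tested. At an unadjusted p under 0.05, 6 of 37 were lower, against 7.25% of all genes tested.

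**Figure D1:**
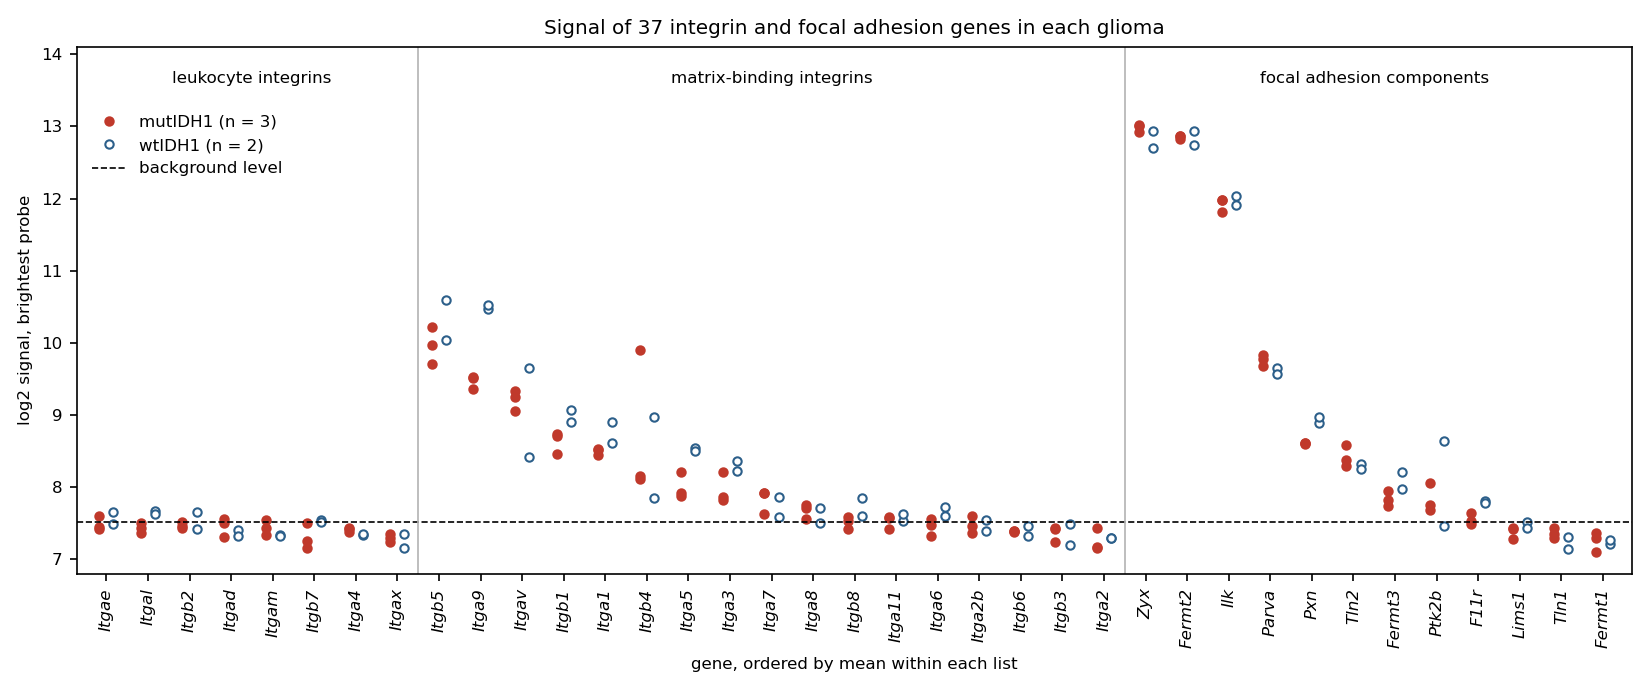
Log2 signal of the brightest probe of each of the 37 genes, with mutIDH1 samples as filled red circles and wtIDH1 samples as open blue circles; the dashed line is the estimated background level of 7.52. The 8 leukocyte integrins lie between 7.16 and 7.67, and the groups are furthest apart in Itga9, by 1.04.

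Itga9 read 9.36, 9.52 and 9.51 in the mutIDH1 samples and 10.47 and 10.53 in the wtIDH1 samples. The 3 mutIDH1 values lay close together and all were about 1 log2 unit under the wtIDH1 values. The means were 9.46 ± 0.09 in mutIDH1 (SD, n = 3) and 10.50 ± 0.04 in wtIDH1 (SD, n = 2), so that Itga9 fell by 1.04 ± 0.08 (SE), 2.05-fold, with a limma adjusted p of 0.0186 over all genes tested. Its other 2 probes were near background, with means of 7.42 and 7.28, and both were lower in mutIDH1 (−0.22 and −0.18). Averaged over its 3 probes, Itga9 was at −0.48 (limma adjusted p = 0.0414). The call was lost when a mutIDH1 sample was left out (limma adjusted p = 0.0502 without sample 1, 0.137 without sample 2 and 0.112 without sample 3), at changes between −1.07 and −0.98.

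Several markers of vessels, macrophages and neutrophils fell in the same tumours. Of 9 endothelial markers 3 fell (Emcn, Vwf and Cdh5). The summed linear signal of all 9 was 6061 to 7499 in mutIDH1 and 11043 to 11525 in wtIDH1. The groups overlapped for Kdr, Tie1 and Tek, and Kdr had a change above 0 (0.08 ± 0.13). Of 9 mural cell markers 2 fell (Acta2 and Pdgfrb), with sums of 4541 to 5491 in mutIDH1 and 7354 to 9482 in wtIDH1. Acta2 carried this gap: without it, a sum chosen after seeing the data, the other 8 mural markers gave 3724 to 4758 in mutIDH1 and 4293 to 5046 in wtIDH1, which overlap, and 3 of the 9 (Rgs5, Cspg4 and Myh11) had changes above 0. Of 8 measured monocyte and macrophage markers 4 fell, Mrc1 and Plac8 among them, with sums of 2176 to 3477 in mutIDH1 and 8517 to 12236 in wtIDH1. Of 9 measured neutrophil markers 2 fell (S100a8 and S100a9), with sums of 1496.5 to 1531.9 in mutIDH1 and 2240.2 to 2596.8 in wtIDH1. The mural list had 1 marker at or under background on every array (Myh11) and the neutrophil list 2. The endothelial and macrophage lists had 0. The part of these cells in the change of Itga9 was not tested.

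Beta1, the partner of alpha9 and of most matrix-binding alpha subunits, was lower without passing. Itgb1 read 8.46, 8.73 and 8.70 in mutIDH1 and 9.07 and 8.90 in wtIDH1, groups that did not overlap, and its change was −0.35 ± 0.11 (limma adjusted p = 0.240). Itga5, the alpha subunit of the fibronectin receptor alpha5beta1, read 7.91, 7.88 and 8.20 in mutIDH1 and 8.54 and 8.50 in wtIDH1. All mutIDH1 values were below both wtIDH1 values, at a change of −0.52 ± 0.12 (adjusted p = 0.126), and the dimmer Itga5 probe had the same sign (−0.40). The dimmer Itgb1 probe was also lower (−0.20), but there wtIDH1 sample 2, at 8.39, lay below mutIDH1 sample 3, at 8.61.

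The promoters of this receptor pair are shown because both genes have a RefSeq window at their annotated start and all 4 of their probes had the same sign. Each window runs from 250 bases before to 50 bases after the start, 5′ to 3′ on the gene's strand, in assembly GRCm38.p6. Itga5 lies at chr15:103366742-103367041 on the minus strand and Itgb1 at chr8:128685404-128685703 on the plus strand. Capitals mark GC boxes (GGGCGG or its reverse complement), the motif bound by Sp1 family factors.
Itga5: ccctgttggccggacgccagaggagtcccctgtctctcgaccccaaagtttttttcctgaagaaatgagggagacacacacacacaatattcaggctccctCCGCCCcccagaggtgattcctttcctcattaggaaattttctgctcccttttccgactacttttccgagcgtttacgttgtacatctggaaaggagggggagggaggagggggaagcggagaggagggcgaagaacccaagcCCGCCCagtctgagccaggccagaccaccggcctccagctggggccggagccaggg
Itgb1: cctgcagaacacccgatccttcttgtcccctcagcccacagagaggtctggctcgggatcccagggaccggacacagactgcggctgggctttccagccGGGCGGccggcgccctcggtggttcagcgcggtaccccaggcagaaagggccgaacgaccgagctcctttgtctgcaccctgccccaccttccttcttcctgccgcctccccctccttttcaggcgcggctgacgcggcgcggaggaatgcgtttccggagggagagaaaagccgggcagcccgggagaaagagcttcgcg
The Itga5 window holds 2 GC boxes and the Itgb1 window 1, and 35.7% of all 32851 windows hold at least 1. The TATA box (TATAAA), which 13.6% of all windows hold, was searched on both strands and was in neither. The same holds for the CCAAT box, with letters as in its name, which 37.4% of windows hold. The AP-1 site (TGANTCA), held by 7.81% of windows, was also in neither. The marked boxes overlap no other motif. GC content was 58.7% for Itga5 and 67.3% for Itgb1, against a median of 52.7% over all windows. Of the 39 genes 26 had a window, and that of Itga9 belongs to a start 105 kb inside the gene and is not shown.

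**Figure D2:**
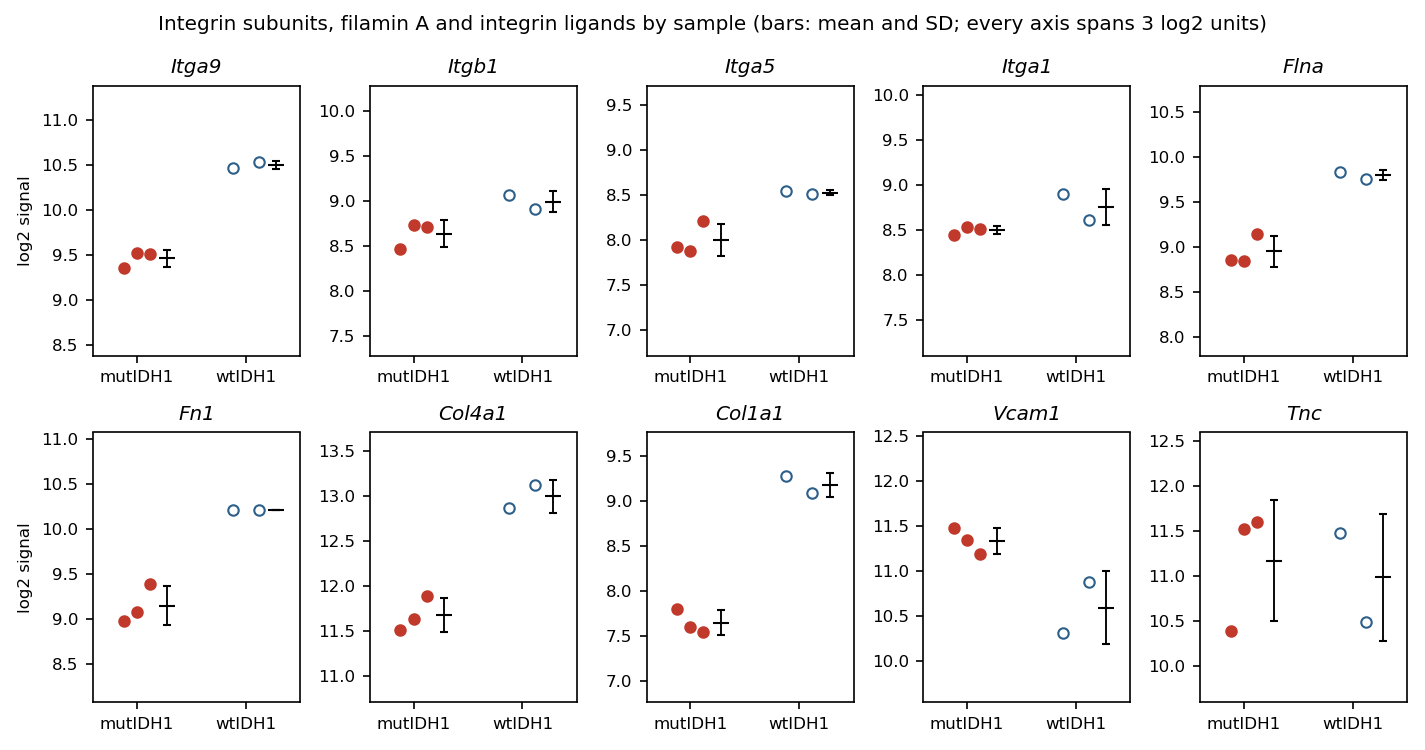
Log2 signal by sample of Itga9, Itgb1, Itga5, Itga1, Flna and 5 integrin ligands, mutIDH1 (filled red) left of wtIDH1 (open blue), with the mean and SD beside the points and axes that each span 3 log2 units. Itga9, Flna, Fn1, Col4a1 and Col1a1 separate the groups with a call, Vcam1 is higher in mutIDH1 without one, and Tnc overlaps.

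Several ligands of these receptors fell. Of 35 measured ligands and counter-receptors (of 40 listed), 6 fell and by limma 0 rose, at a median change of −0.12. At an unadjusted p under 0.05, 15 of 35 were lower and 2 higher, against 7.25% and 7.11% of all genes tested. Fn1, fibronectin, the ligand of alpha5beta1 and also of alpha9beta1, read 8.97, 9.07 and 9.39 in mutIDH1 and 10.21 and 10.21 in wtIDH1. Fn1 fell by 1.07 ± 0.14 (adjusted p = 0.0401), with all mutIDH1 values below both wtIDH1 values. Averaged over its probes, Fn1 was at −0.34 (limma adjusted p = 0.116).

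Col4a1, the basement membrane collagen held by alpha1beta1, read 11.51, 11.63 and 11.89 in mutIDH1 and 12.86 and 13.13 in wtIDH1 and fell by 1.32 ± 0.14 (limma adjusted p = 0.0288). Col1a1, the fibrillar collagen chain held by alpha2beta1 and alpha11beta1, fell by 1.53 ± 0.11 (adjusted p = 0.0149). Vwf, the platelet-binding factor recognised by alphaIIbbeta3 and also counted above as an endothelial marker, fell by 1.34 ± 0.14 (adjusted p = 0.0267). The remaining 2 that fell, named after their values were seen, were Ccn2, a matricellular protein (−1.27 ± 0.18, adjusted p = 0.0448), and Col4a2, the partner chain of Col4a1 (−1.18 ± 0.17, adjusted p = 0.0477). All 6 calls were lost without any 1 of the mutIDH1 samples (limma adjusted p of 0.0502 to 0.218), and those of Fn1 and Col4a2 also without either wtIDH1 sample (0.0512 to 0.0681). With sex as a covariate the calls of Fn1, Vwf and Ccn2 were lost (0.0681 to 0.0766), with array weights those of Fn1 and Col4a2 (0.0547 and 0.0594), and with cyclic loess those of Ccn2 and Col4a2 (0.0610 and 0.0523).

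Other ligands of alpha9beta1 had values in both directions, and none of those named here passed. The genes named here were picked after their values were seen. Vcam1, an adhesion molecule of activated endothelium and astrocytes, read 11.47, 11.34 and 11.19 in mutIDH1 and 10.30 and 10.88 in wtIDH1, all mutIDH1 values being higher, at a change of 0.74 ± 0.19 (limma adjusted p = 0.156). Tnc, tenascin C of the glioma matrix, read 10.40, 11.52 and 11.60 in mutIDH1 and 11.49 and 10.49 in wtIDH1, where the groups overlapped (0.19 ± 0.46, adjusted p = 0.922). Emilin1, an elastic fibre glycoprotein, stood at −0.12 ± 0.12 (adjusted p = 0.751). Vegfa, also on the ligand list, had a larger change, at −0.99 ± 0.16 (limma adjusted p = 0.0642). All its mutIDH1 values were below both wtIDH1 values.

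The collagen receptors differed in how far their signal stood above background. Itga1, the alpha subunit of the collagen IV receptor alpha1beta1 on vessels and mesenchymal cells, read 8.45, 8.53 and 8.51 in mutIDH1 and 8.90 and 8.61 in wtIDH1. Its groups did not overlap, by a narrow margin at wtIDH1 sample 2, and the change was −0.26 ± 0.11 (limma adjusted p = 0.365). Its second probe, under background on every array, was at 0.01. Itga11, the fibroblast receptor of fibrillar collagen, ran from 7.43 to 7.63 with overlapping groups (−0.05 ± 0.09). Itga2, of platelets and epithelia, stayed at or under background on every array.

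Alpha subunits of laminin receptors had values on both sides of 0, and none passed. Itga3, which pairs with beta1, read 8.21, 7.86 and 7.83 in mutIDH1 and 8.36 and 8.22 in wtIDH1, a change of −0.32 ± 0.14 (adjusted p = 0.390) in which mutIDH1 sample 1 nearly reached the wtIDH1 range. Itga6, which pairs with beta1 or beta4, was at −0.21 ± 0.10 (limma adjusted p = 0.421) with all mutIDH1 values below both wtIDH1 values, 3 of its 5 values being above background. Its other 2 probes, near background, were at −0.08 and 0.01. Itga7, the muscle laminin receptor, ran from 7.59 to 7.92 with overlapping groups (0.10 ± 0.13).

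Itgb4, the beta subunit of the alpha6beta4 laminin receptor, varied among samples more than between the groups. It read 9.90, 8.15 and 8.11 in mutIDH1 and 7.84 and 8.97 in wtIDH1, so that 1 sample of each group was high, at a difference of 0.31 ± 0.65 (adjusted p = 0.903). The second Itgb4 probe was high in the same samples, at a lower signal, 8.65, 7.55 and 7.65 in mutIDH1 and 7.43 and 8.16 in wtIDH1. The myelin gene Mobp had its highest values in the same samples, with 12.55, 10.25 and 9.68 in mutIDH1 and 7.81 and 11.95 in wtIDH1. Mog, another myelin gene, read 11.29, 8.98 and 8.64 in mutIDH1 and 7.96 and 10.24 in wtIDH1, and the order of the 5 samples was the same for Itgb4, Mobp and Mog. Of 4 oligodendrocyte markers measured, 0 passed by limma (0 at an unadjusted p under 0.05), and their summed linear signal was 10545 to 44385 in mutIDH1 and 5973 to 37192 in wtIDH1. The part of myelinated tissue in the Itgb4 signal was not tested.

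**Figure D3:**
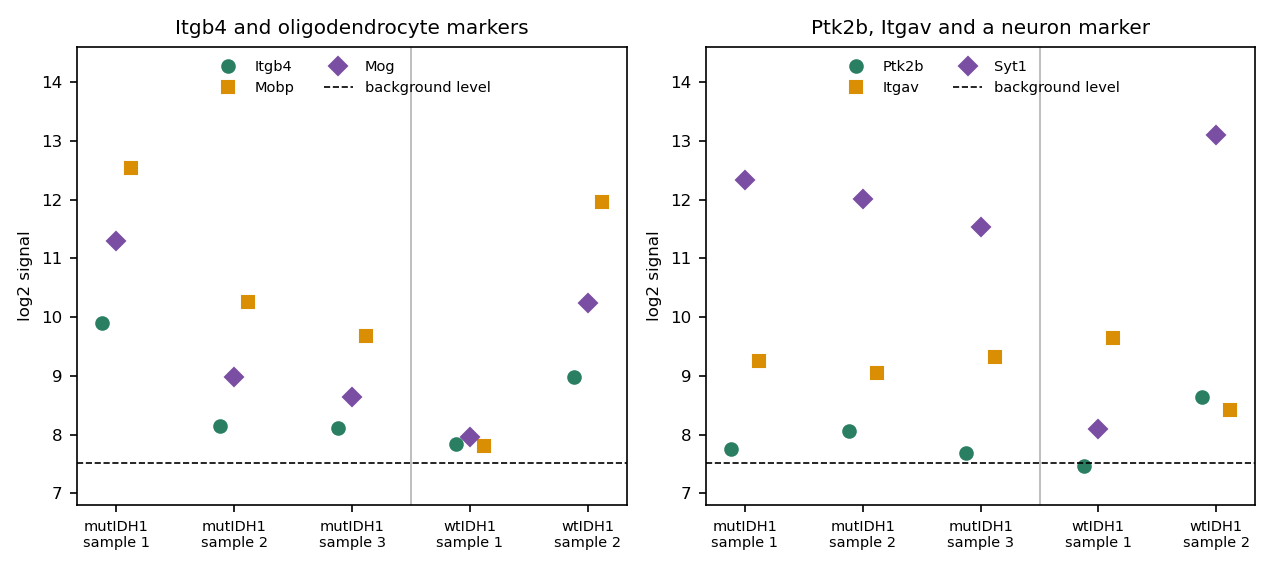
Log2 signal per glioma of Itgb4 with the myelin genes Mobp and Mog (left) and of Ptk2b and Itgav with the neuron gene Syt1 (right), with mutIDH1 samples to the left of the grey line and wtIDH1 samples to its right; the dashed line is the background level. Itgb4, Mobp and Mog are high in mutIDH1 sample 1 and wtIDH1 sample 2, and Itgav is lowest where Ptk2b is highest, in wtIDH1 sample 2.

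The alphav group, whose pairs bind RGD sequences in vitronectin and fibronectin and release TGF-beta from its latent form, gave readings that depended on the probe. The brightest Itgav probe read 9.25, 9.05 and 9.33 in mutIDH1 and 9.65 and 8.42 in wtIDH1, where the wtIDH1 samples lay on either side of all mutIDH1 samples (0.18 ± 0.35, limma adjusted p = 0.897). The next Itgav probe read 7.99, 8.10 and 7.90 in mutIDH1 and 8.96 and 8.65 in wtIDH1, a difference of −0.80 with no overlap. The other 3 Itgav probes had means of 7.26 to 7.49 and differences of −0.07 to −0.44. Averaged over all 5 probes, Itgav turned to −0.27 (limma adjusted p = 0.485). No direction is given for Itgav.

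**Figure D4:**
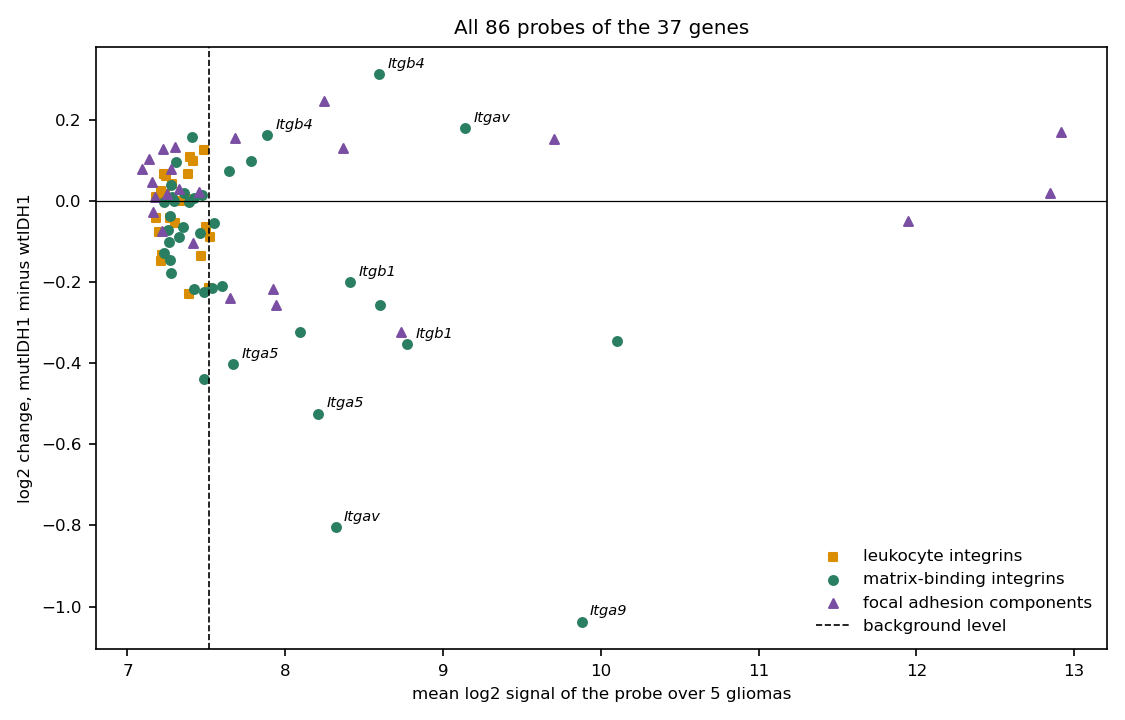
Difference mutIDH1 minus wtIDH1 of each of the 86 probes of the 37 genes, on the log2 scale, against the mean log2 signal of the probe, with marker shape and colour giving the list and the dashed line the background level. The 2 brightest Itgav probes lie on opposite sides of 0, both Itga5 and both Itgb1 probes lie below it, and all leukocyte integrin probes lie at or near the dashed line.

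Among the beta partners of alphav, Itgb5, of microglia and many other cells, read 9.97, 10.22 and 9.70 in mutIDH1 and 10.03 and 10.59 in wtIDH1. Its groups overlapped, with wtIDH1 sample 2 the highest, at −0.34 ± 0.22 (limma adjusted p = 0.588). Itgb8, the TGF-beta activating subunit of glia, was at −0.21 ± 0.10 (adjusted p = 0.456) with non-overlapping groups, and 1 of its 5 values lay under background. Its other 2 probes, dimmer, had the opposite sign (0.16 and 0.04), and averaged over all 3 Itgb8 was at −0.00 (limma adjusted p = 0.988), so no direction is given. Itgb3 of platelets and vessels, and Itgb6 of epithelia, stayed at or under background on every array.

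Itga8, of mesenchymal cells, ran from 7.50 to 7.75 (0.07 ± 0.10), and Itga2b, the platelet subunit alphaIIb, from 7.37 to 7.61 (0.01 ± 0.10), both with overlapping groups. Beside Itga2b, 1 of 6 measured platelet markers fell, and 3 of 6 were at or under background on every array.

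Of the 17 measured matrix-binding subunits, 1 fell and by limma 0 rose (0 at an unadjusted p under 0.05). In 7 of the 17 (41.2%) the groups did not overlap with mutIDH1 lower, and in 0 with mutIDH1 higher, against 14.0% and 16.7% of all genes tested. At an unadjusted p under 0.05, 3 of 17 (17.6%) were lower, against 7.25% of all genes tested. The median change was −0.05. Over the 9 subunits above background on all arrays it was −0.32, against 0.02 over all genes tested that were above background on all arrays. The 7 were Itga1, Itga3, Itga5, Itga6, Itga9, Itgb1 and Itgb8, the last with probes of opposite sign.

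The leukocyte integrins could hardly be read on these arrays. Of the 8 measured subunits 0 were above background on all 5 arrays, and by limma 0 passed the test in either direction (1 at an unadjusted p under 0.05, lower). Their values ran from 7.16 to 7.67, and their median change was −0.01. Of their 23 probes 0 lay above background on all arrays, against 35.9% of all probes. The comparison of leukocyte with matrix-binding subunits is therefore limited by signal: matrix-binding subunits had 9 of 17 above background on all arrays.

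Itgb2, the beta2 subunit shared by the pairs of Itgal, Itgam, Itgax and Itgad, read 7.52, 7.46 and 7.43 in mutIDH1 and 7.65 and 7.42 in wtIDH1 (limma adjusted p = 0.844), and of these 5 values that of wtIDH1 sample 1 alone was above background. Itgal, the alpha subunit of LFA-1 on lymphocytes and other leukocytes, read 7.50, 7.43 and 7.37 in mutIDH1, all at or under background, and 7.67 and 7.63 in wtIDH1. It was at least 1.09-fold higher in wtIDH1 (limma adjusted p = 0.283). Itgam, the alpha subunit of Mac-1 that marks microglia and other myeloid cells as CD11b, read 7.34, 7.43 and 7.55 in mutIDH1 and 7.34 and 7.33 in wtIDH1. With 1 of 5 values above background, no fold is given (limma adjusted p = 0.686).

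Itgax, the CD11c subunit of dendritic cells, stayed at or under background on all 5 arrays. Itgad, a beta2 partner of macrophages, reached 7.56 in 1 sample. Itga4, which pairs with beta1 or beta7 and binds VCAM1 and fibronectin, read 7.42, 7.43 and 7.38 in mutIDH1 and 7.33 and 7.35 in wtIDH1, all under background although the groups did not overlap (limma adjusted p = 0.750). Itgb7, the gut-homing partner of alpha4 and alphaE, read 7.25, 7.50 and 7.16 in mutIDH1 and 7.55 and 7.52 in wtIDH1 (limma adjusted p = 0.482). Of these values that of wtIDH1 sample 1 alone was above background, so no fold is given. Itgae, the CD103 subunit that binds E-cadherin, ran from 7.42 to 7.66 with overlapping groups.

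Other leukocyte genes on the same arrays had readable signal. Of 8 pan-leukocyte markers 7 were above background on all arrays, and Ptprc, which encodes CD45, was at or under it on every array. By limma 0 of the 8 passed, while 5 (62.5%) were lower at an unadjusted p under 0.05, against 7.25% of all genes tested. In 6 of the 8 the groups did not overlap with mutIDH1 lower, against 14.0% of all genes tested. They overlapped for Laptm5, the brightest of the 8, and for Cd52. The summed linear signal of the 8 was 9302 to 11159 in mutIDH1 and 11707 to 16504 in wtIDH1. Was, the actin regulator of blood cells, stood at −0.46 ± 0.10 (adjusted p = 0.123) and Cd53, a leukocyte tetraspanin, at −0.52 ± 0.12 (adjusted p = 0.136). Of 9 microglia markers, all above background on all arrays, 0 passed by limma (1 lower and 1 higher at an unadjusted p under 0.05), at a median change of 0.12. Their summed linear signal pointed the other way by a narrow margin, at 6498 to 7357 in mutIDH1 and 7369 to 9873 in wtIDH1. That sum leans on Fcrls, the brightest of the 9, while 6 of the 9 had changes above 0. No direction is therefore given for the microglia list. At an unadjusted p under 0.05, the lower marker was Fcrls (−0.90 ± 0.20, limma adjusted p = 0.118) and the higher Sall1 (0.42 ± 0.10, limma adjusted p = 0.140). Of 7 measured T and NK cell markers, 5 were at or under background on every array.

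On the actin-linking side of the adhesion complex the sizes of change were small. Of 12 measured components 0 passed by limma in either direction, the median change was −0.02, and changes ran from −0.32 to 0.17. At an unadjusted p under 0.05, 2 of 12 (16.7%) were lower, against 7.25% of all genes tested. In 4 of 12 (33.3%) the groups did not overlap with mutIDH1 lower, and in 1 (8.33%) with mutIDH1 higher. Over all genes tested these shares were 14.0% and 16.7%. Several components had signal far above background. Fermt2, kindlin-2, which switches integrins on in tissue cells, read 12.87, 12.87 and 12.83 in mutIDH1 and 12.93 and 12.74 in wtIDH1 (0.02 ± 0.09, adjusted p = 0.956). Ilk, the integrin-linked pseudokinase, read 11.82, 11.98 and 11.98 in mutIDH1 and 12.04 and 11.91 in wtIDH1 (−0.05 ± 0.09, adjusted p = 0.885). The groups overlapped for both genes, and the second Ilk probe, far dimmer, had the opposite sign (0.15).

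Pxn, paxillin, the scaffold that recruits kinases to adhesions, had the largest size of change in this list. It read 8.62, 8.60 and 8.61 in mutIDH1 and 8.89 and 8.97 in wtIDH1, tight and separate groups, at −0.32 ± 0.07 (limma adjusted p = 0.112). Its other 4 probes were at or near background, with differences of 0.02 to 0.08. Zyx, zyxin of mature adhesions and stress fibres, ran from 12.93 to 13.02 in mutIDH1 and read 12.93 and 12.70 in wtIDH1 (0.17 ± 0.09, adjusted p = 0.530). Parva, alpha-parvin, which joins integrin-linked kinase to actin, read 9.83, 9.68 and 9.78 in mutIDH1 and 9.64 and 9.57 in wtIDH1, higher in all mutIDH1 samples (0.15 ± 0.08, adjusted p = 0.493).

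Fermt3, kindlin-3 of blood cells, read 7.74, 7.95 and 7.82 in mutIDH1 and 8.22 and 7.97 in wtIDH1. Its groups came close but did not overlap, at −0.26 ± 0.11 (limma adjusted p = 0.381), and it lay above background on every array, unlike the beta2 subunits it acts on. F11r, the junctional adhesion molecule JAM-A, a ligand of LFA-1, read 7.49, 7.53 and 7.64 in mutIDH1 and 7.80 and 7.79 in wtIDH1 (−0.24 ± 0.08, adjusted p = 0.246). Fermt1, the epithelial kindlin, and Tln1, the talin of most cells, were at or under background on all arrays. Lims1, the adaptor PINCH1, was above it on 1 array, and Tln2, the talin of brain and muscle, stood at 0.13 ± 0.11.

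Ptk2b, the kinase PYK2 of neurons and myeloid cells, read 7.76, 8.06 and 7.68 in mutIDH1 and 7.47 and 8.64 in wtIDH1. The wtIDH1 samples lay on either side of the mutIDH1 samples, at −0.22 ± 0.35 (limma adjusted p = 0.861). Syt1, a synaptic vesicle gene, also had its highest and lowest values in the wtIDH1 samples, at 12.34, 12.02 and 11.53 in mutIDH1 and 8.10 and 13.09 in wtIDH1. The part of neuronal tissue in the Ptk2b signal was not tested.

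Among 39 measured adaptors and kinases of the same complex outside the set (of 45 listed), 1 fell and by limma 0 rose, at a median change of −0.05. At an unadjusted p under 0.05, 7 of 39 were lower and 4 higher, against 7.25% and 7.11% of all genes tested. Flna, filamin A, which crosslinks actin and binds beta tails in competition with talin, read 8.86, 8.85 and 9.15 in mutIDH1 and 9.84 and 9.76 in wtIDH1. Flna fell by 0.85 ± 0.12 (adjusted p = 0.0443), with a wide gap between the groups, and lost the call in each alternative that left out a sample (adjusted p of 0.0528 to 0.216). It also lost the call when averaged over its probes (−0.45, limma adjusted p = 0.0528), with array weights (0.0657) and with sex as a covariate (0.0950). Vcl, vinculin, named after its value was seen, stood at −0.67 ± 0.12 (adjusted p = 0.0751), with 10.38, 10.58 and 10.74 in mutIDH1 and 11.24 and 11.24 in wtIDH1. Changes of like size went the other way in Dock1 and Fyn, also named after their values were seen. Dock1 stood at 0.70 ± 0.13 (limma adjusted p = 0.0832) and Fyn at 0.61 ± 0.19 (limma adjusted p = 0.228). Both were higher in all mutIDH1 samples.

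**Figure D5:**
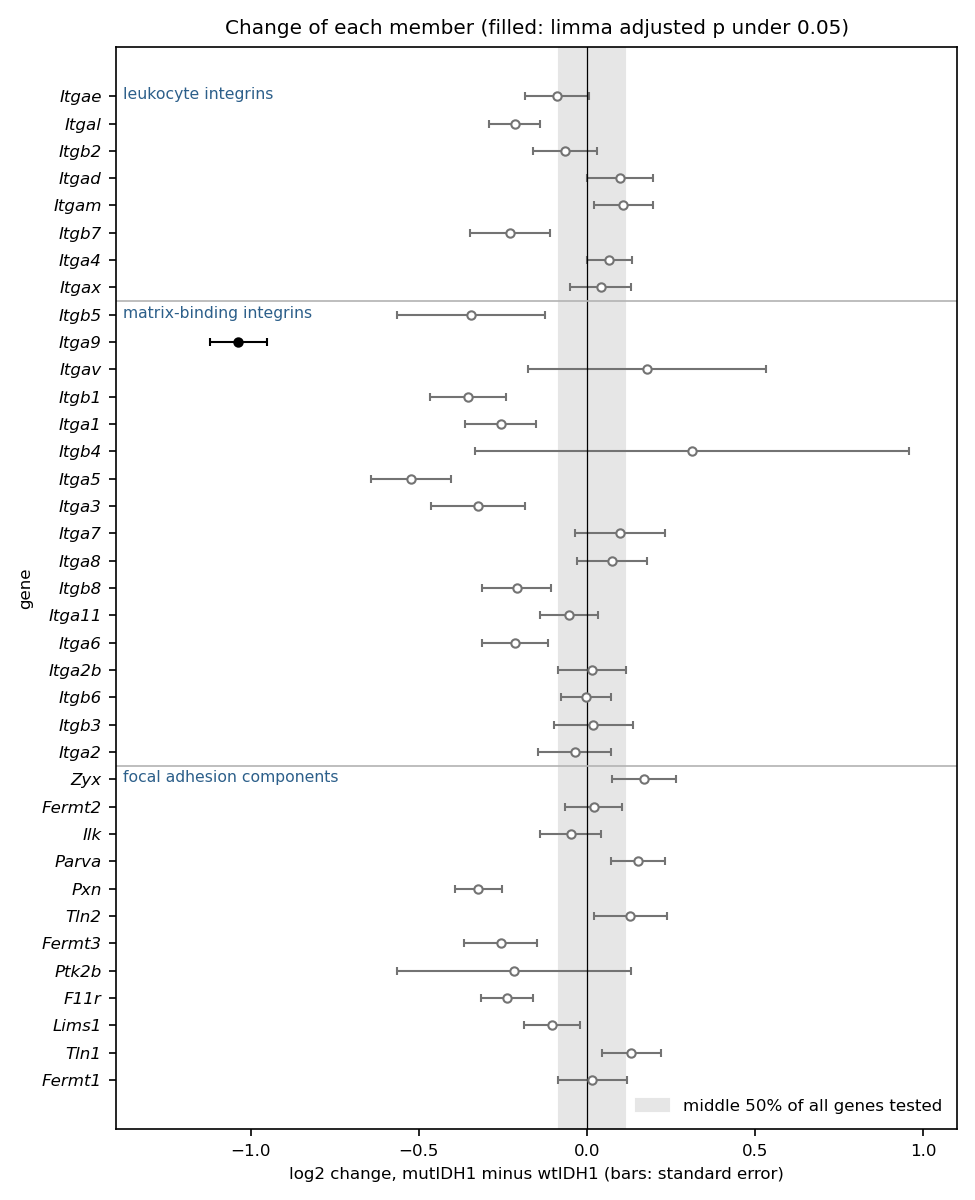
Log2 change, mutIDH1 minus wtIDH1, of each of the 37 genes with its standard error, ordered by list and by mean signal; filled circles passed at a limma adjusted p under 0.05, and the grey band holds the middle 50% of all genes tested. Itga9 at −1.04 is the 1 filled circle, and the leukocyte integrins stay between −0.23 and 0.11.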

How the data were processed

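RNA of 3 mutIDH1 and 2 wtIDH1 gliomas was measured on Illumina arrays; titles gave groups and sample numbers. The deposited values are log2 signals of 45281 probes. The submitters' processing notes name limma without a version, and its background and normalization steps are not given in the sources used here. All arrays share 1 distribution (medians within 0.000688, range 6.91 to 15.06), and background was not subtracted to 0. A non-normalized table was not used: the names of its 10 columns of signals and detection p match no single sample. A filter on dim probes therefore replaced one on detection p.

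Platform annotation gave 1 symbol to 34885 probes, several to 18 and none to 10378, and 34807 matched RefSeq gene IDs (assembly GRCm38.p6). The dimmest 20% of probes (means below 7.23) were dropped, and the brightest remaining probe stood for its gene. The background level of 7.52 lies 3 spreads of the signals under the mode (0.0901 each) above that mode (7.25). Where a whole group lay at or under it, "at least" folds set the other group's mean against the higher of that level and the dim signal.

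Changes, mutIDH1 minus wtIDH1, come from limma 3.58.1 under R 4.3.3 (lmFit, eBayes, 2-sided, group as the only term, 3 residual and 2.50 prior degrees of freedom), with Benjamini-Hochberg adjustment over 16917 genes at 0.05. The procedure was tested on simulated data. A permutation of 3 against 2 samples cannot give a 2-sided exact p under 0.2 and was not used. Each sample has its own tumour code, and litters and days are not labelled. The p-values set a difference against the spread between these few samples, moderated by the spread over all genes tested.

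The members and lists were chosen with earlier results of these data known. The naming rule takes every member, up to 4 pathway genes per list that passed, and up to 2 genes with the smallest p per marker list. Olig2, Sox10, Myh11, Rgs5, Cspg4, Snap25, Tubb3, Ptprc, Laptm5, Cd52, Cdh5, Kdr, Tie1, Tek, Mobp, Mog and Syt1, where outside it, and per-sample values beyond 4 members per list, were chosen after values were seen. Of measured neutrophil, B cell and dendritic cell markers, 2 of 9, 0 of 3 and 0 of 4 fell. Of red blood cell and astrocyte markers, 0 of 3 and 0 of 6 fell. By limma 0 of the markers in these lists rose. At an unadjusted p under 0.05, 1 astrocyte marker and 0 of the others were higher. Lower at that p were 2 of 9 neutrophil, 1 of 3 B cell and 2 of 3 red blood cell markers, against 7.25% of all genes tested. The 2 red blood cell markers were Alas2 (−1.71 ± 0.38, limma adjusted p = 0.123) and Hba-a1 (−1.36 ± 0.37, limma adjusted p = 0.177). The summed linear signal of the 3 red blood cell markers was 6544 to 15616 in mutIDH1 and 23782 to 29179 in wtIDH1. Deviations of same-numbered samples from their group means correlated at −0.263 (number 1) and 0.107 (number 2). The deviations of 2 wtIDH1 samples mirror each other, so these correlations cannot show or exclude pairing. Sample numbers are not known to pair the tumours, and the samples were treated as unpaired. Alternatives changed the probe filter, probe averaging, moderation, background correction, normalization, array weights, replicate block, sex covariate, the list holding Itga4 and the samples used.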

Additional observations from a re-analysis of the deposited data

How the results depend on the processing

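Among 14 alternatives, 0 of the 36 members other than Itga9 passed, and 14 members changed sign in at least 1, none of them with a change over 0.31 in size. Itga9 stayed lower in all 14. It lost its call without any 1 of the mutIDH1 samples and with a replicate block (adjusted p = 0.393), where 0 members and 0 genes in all passed; sample numbers are not known to pair the tumours. Over all genes, 228 changed, 363 with trended and robust moderation and 59 with sex (read from Xist and Eif2s3y) as a covariate, and 0 to 479 when 1 sample was left out, with 14, 0 and 0 without mutIDH1 sample 1, 2 and 3 and 479 without wtIDH1 sample 2. Members that fell numbered 0 to 1 with a sample left out.

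Median changes moved as follows. Leukocyte integrins were at −0.065 with the dimmest 40% of probes dropped and with Itga4 counted as matrix-binding. Matrix-binding integrins were at −0.13 with the 40% filter, and −0.17 to −0.086 with a sample left out. Focal adhesion components were at −0.077 with the 40% filter, 0.018 with probe averages, −0.058 with the replicate block, and −0.058 to −3.3e-05 with a sample left out. Other adaptors were at −0.10 with normexp, and −0.071 to −0.030 with a sample left out. Ligands were at −0.066 without a filter, −0.20 with the replicate block, and −0.20 to −0.076 with a sample left out.

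Signs turned with probe averages for Itga8 (−0.015), Itgav (−0.27), Itga2b (−0.038) and Ilk (0.053). With the replicate block they turned for Itga2 (0.014), Itga2b (−0.049), Itgb3 (−0.0081) and Fermt1 (−0.040), with the sex covariate for Itga2b (−0.013) and Itgb6 (0.0052), with array weights for Fermt1 (−0.0024), and with cyclic loess for Fermt2 (−0.0038). With a sample left out, Itgax ran from −0.060 to 0.14, Itgb2 from −0.18 to 0.051, Itga2 from −0.13 to 0.014, Itga7 from −0.037 to 0.23, Itgb4 from −0.28 to 0.88, Itga8 from −0.031 to 0.18, and Itgav from −0.44 to 0.80. Itga2b ran from −0.063 to 0.092, Itgb3 from −0.12 to 0.16, Itgb6 from −0.067 to 0.061, Fermt1 from −0.040 to 0.096, Fermt2 from −0.078 to 0.12, Ilk from −0.11 to 0.014, and Ptk2b from −0.81 to 0.37. The causes were not tested. Signal over background limits the leukocyte integrins.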
